A study of Homo sapiens with 6 samples.

Results

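Pleiotrophin, KIT ligand and endothelin are secreted or membrane-bound factors that act on neighbouring cells or on the cell that makes them. The 10 genes described here code for their ligands, receptors and processing enzyme: PTN, MDK, PTPRZ1 and SDC3 of the pleiotrophin system, KITLG and KIT of the KIT system, and EDN1, ECE1, EDNRA and EDNRB of the endothelin system. They were taken as the rows of the deposited expression table that carry these symbols, which gave 10 of 24108 rows, with 1 row for each gene. The genes were chosen by the FPKM difference between the 2 groups, which was already known: PTN, KITLG and EDNRB were higher after knockdown of ZNF148, and the others are their relatives, receptors and processing enzyme. Their differences are therefore given as a description, and no p-value of a single gene among the 10 is printed. Where they are counted as called, the count is set beside the share of all rows and supports nothing.

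RNA-seq was performed on MDA-MB-231, an established breast cancer cell line of the basal subtype. Cells were transduced with a lentivirus carrying a short hairpin against luciferase (shCtr, 3 replicates) or a short hairpin against the zinc finger factor ZNF148 (shZNF148, 3 replicates). In both groups transduction lasted 48 h and selection in puromycin at 0.5 µg/ml lasted 24 h, so virus and drug are shared by the controls. Each group has 1 hairpin, so a response to loss of ZNF148 and a response to that hairpin or virus preparation cannot be told apart. No label says that the replicates were separate cultures, and p-values then measure only the spread between these samples, which may be technical.

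Pleiotrophin (PTN) and midkine (MDK) form a family of heparin-binding growth factors. Pleiotrophin binds the receptor tyrosine phosphatase PTPRZ1 and lowers its activity, and both factors bind syndecans such as SDC3 (N-syndecan) through heparan sulfate. KIT ligand (KITLG, stem cell factor) activates the receptor tyrosine kinase KIT, a pair best known from blood stem cells, mast cells, germ cells and melanocytes. Endothelin-1 (EDN1) is made as a precursor that endothelin-converting enzyme (ECE1) cleaves, and it signals through the G protein-coupled receptors EDNRA and EDNRB. EDNRB binds the endothelins with like affinity, while EDNRA prefers endothelin-1 and endothelin-2.

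The reagent and the promoters of the genes that differed most are shown first, because ZNF148 is a DNA-binding factor for which the study describes a motif of consecutive C or G bases. The hairpin against ZNF148 was designed on this 21-base target, printed to show what was searched for in the transcripts of the 10 genes:
shZNF148 target: cccttggtgaatgtaaatgat
This sequence occurred in 8 of 12 GENCODE transcripts of ZNF148 and, on either strand, in 0 of the 102 transcripts of the 10 genes. Inexact matches were not searched. Promoter windows of 300 bases (250 before and 50 after the start) were taken from RefSeq on GRCh38.p14 and matched 9 of the 10 genes. MDK had no entry. The windows of PTN, KITLG and EDNRB (the first of 2 starts), which were higher in shZNF148, and of EDN1 (the third of 3 starts), which was lower, are printed in the direction of the gene, with the word CCCTCCC in capitals:
PTN (chr7:137343684-137343983, minus strand): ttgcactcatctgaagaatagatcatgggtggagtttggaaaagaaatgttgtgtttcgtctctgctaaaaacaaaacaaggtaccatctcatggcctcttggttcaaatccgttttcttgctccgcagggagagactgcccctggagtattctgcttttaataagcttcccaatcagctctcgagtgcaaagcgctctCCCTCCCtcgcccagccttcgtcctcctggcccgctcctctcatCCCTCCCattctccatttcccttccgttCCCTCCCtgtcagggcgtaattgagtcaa
KITLG (chr12:88580422-88580721, minus strand): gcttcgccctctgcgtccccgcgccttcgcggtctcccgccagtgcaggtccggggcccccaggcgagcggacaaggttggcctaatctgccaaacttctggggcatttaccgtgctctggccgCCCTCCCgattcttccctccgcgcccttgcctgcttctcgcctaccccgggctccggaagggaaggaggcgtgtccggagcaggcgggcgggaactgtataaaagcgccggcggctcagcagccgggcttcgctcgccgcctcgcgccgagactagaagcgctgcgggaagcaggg
EDNRB (chr13:77919633-77919932, minus strand): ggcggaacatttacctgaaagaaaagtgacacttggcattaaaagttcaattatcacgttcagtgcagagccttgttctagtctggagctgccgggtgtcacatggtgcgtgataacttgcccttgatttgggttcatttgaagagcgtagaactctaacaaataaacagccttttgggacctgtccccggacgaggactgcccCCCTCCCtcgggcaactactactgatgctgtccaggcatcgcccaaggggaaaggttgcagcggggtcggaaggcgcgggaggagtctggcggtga
EDN1 (chr6:12290111-12290410, plus strand): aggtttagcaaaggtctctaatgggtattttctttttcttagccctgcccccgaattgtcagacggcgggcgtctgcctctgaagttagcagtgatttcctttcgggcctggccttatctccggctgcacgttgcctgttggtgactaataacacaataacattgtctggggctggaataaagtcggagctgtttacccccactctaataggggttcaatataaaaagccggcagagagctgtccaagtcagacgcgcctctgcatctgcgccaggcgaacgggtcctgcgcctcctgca
The word CCCTCCC or its reverse complement GGGAGGG, searched on both strands, was present in 7 of the 15 windows and in 5 of the 9 genes. Counting upstream bases as negative from the start, its first base lay at -51, -7 and 22 in PTN and at -126 in KITLG. In EDNRB it lay at -46 in the first window and at -73 in the second. KIT, which was listed at 0 in all samples, held it at -110 and -72 on the other strand. ECE1, which like EDN1 was lower in every shZNF148 replicate than in any shCtr replicate, held it in 2 of its 4 windows. The windows of EDN1, EDNRA, SDC3 and PTPRZ1 did not hold it. Of all 35116 RefSeq promoter windows, 26.6% held this word. This share is per window, and a share per gene was not counted. A gene with several windows has more places where the word can occur. The longer word CCCCTCCCC, which contains it, was in 7.81% of all windows and, among these genes, only in 1 window of ECE1. A match is a description of the letters and not a binding site. The study also mapped where tagged ZNF148 binds the genome of this cell line, by chromatin precipitation and sequencing. Those binding sites were not examined here.

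**Figure D1:**
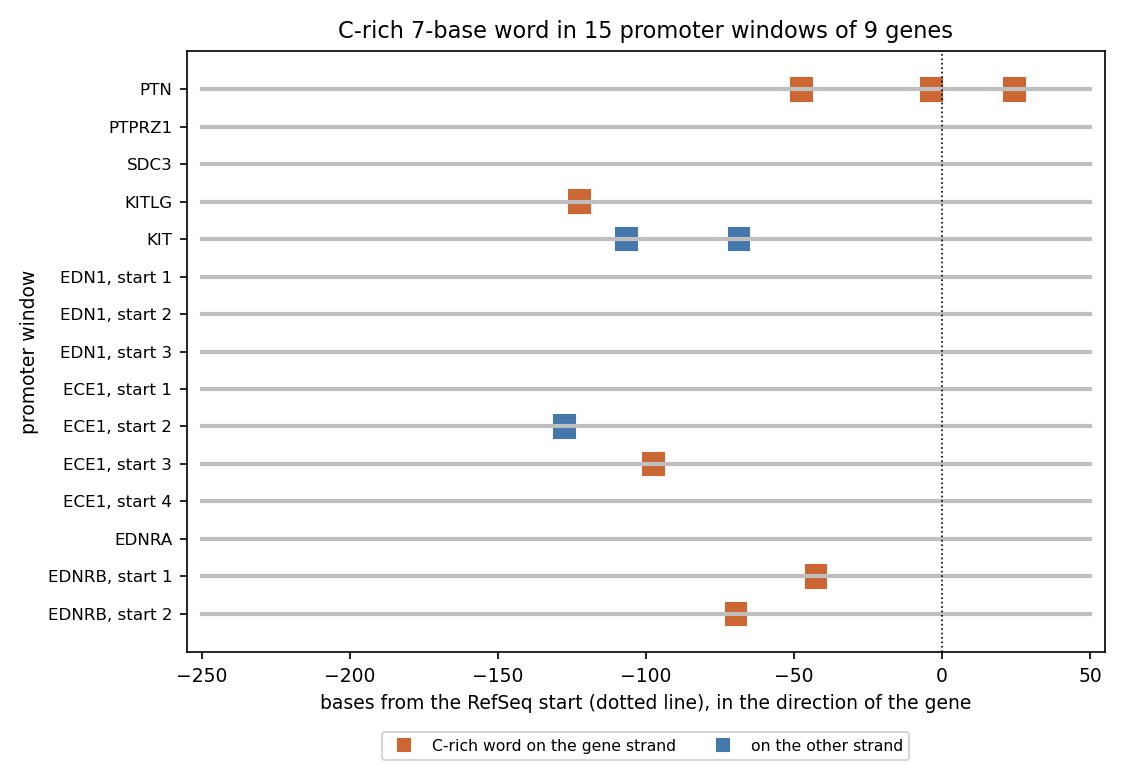
Position of the word CCCTCCC in 15 RefSeq promoter windows of 9 genes. The horizontal axis is the distance from the start in bases, each grey line is 1 window, and boxes mark the word on the gene strand (orange) or the other strand (blue). PTN holds 3 copies on the gene strand, at -51, -7 and 22.

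The knockdown was read from the targeted gene. ZNF148 was at 3.72, 4.36 and 4.30 FPKM (fragments scaled to transcript length and to library size) in shCtr replicates 1, 2 and 3. It was at 0.914, 0.282 and 0.834 FPKM in shZNF148 replicates 1, 2 and 3. The levels of ZNF148 did not overlap, and shZNF148 replicate 2 had the lowest. The column sums were 497730 to 507312 FPKM in shCtr and 469594 to 488173 FPKM in shZNF148, so every shZNF148 sum was the lower, while size factors by the median of ratios were 1 to 1.01. The part of these sums in the results was not tested. The number of reads behind a value is unknown, and depth relative to shCtr replicate 1, read from the steps between low values, was between 0.806 and 1.13. The cell line markers KRT8, KRT18, KRT19 (in a row joined with KRT17), EPCAM, CD44, VIM, EGFR and AXL were at 1 FPKM or more in all 6 samples. Their summed level was 3270 to 3470 FPKM in shCtr and 2780 to 2840 FPKM in shZNF148. Most of this sum was VIM (1770 ± 67.6 and 1520 ± 11 FPKM) and CD44 (588 ± 15.5 and 429 ± 33.9 FPKM). EGFR was called lower, by the adjusted p and 1.5-fold thresholds given below for all rows (log2 difference -0.61, limma adjusted p = 0.02, and 0.0619 with a replicate block) and lost the call without any 1 of the shCtr replicates and without shZNF148 replicate 2. CD44, KRT18 and AXL passed the adjusted p alone. Of the 6 fits that left out 1 replicate, CD44 missed it in 3, KRT18 in 4 and AXL in 5. With a replicate block their limma adjusted p was 0.0498, 0.0669 and 0.0841. KRT8 was at 158 ± 4.7 and 174 ± 12.9 FPKM in shCtr and shZNF148, which overlapped. These genes were named after their values were seen, and their part in the results below was not tested. ESR1 was listed at 0 in all samples and PGR and CDH1 had group means of at most 0.368 FPKM. ERBB2 was measured only in a row joined with MIR4728. That row was at 126 and 125 FPKM in replicate 2 of shCtr and of shZNF148, and at 20.1 to 24.8 FPKM in the other samples. Lists of 6 endothelial, 6 mast or blood cell and 6 melanocyte markers, cell types in which these ligands and receptors are well known, had no marker at 1 FPKM or more in all 6 samples. Their summed levels were 0.519 to 0.692 and 0.352 to 0.686 FPKM (endothelial), 0.443 to 1.38 and 0.741 to 1.19 FPKM (mast or blood) and 0.929 to 1.33 and 1.02 to 1.31 FPKM (melanocyte) in shCtr and shZNF148, respectively. TPSAB1, MS4A2, HDC, TYR and SOX10 were listed at 0 in all 6 samples. Most of the mast or blood sum was CD34, at 0.859 ± 0.422 and 0.903 ± 0.247 FPKM in shCtr and shZNF148. Most of the melanocyte sum was PMEL, at 0.915 ± 0.175 and 1.07 ± 0.172 FPKM (SD, n = 3 each). Both reached 1.26 FPKM in a single sample. In these bulk samples, fewer cells of a type and less RNA per cell cannot be told apart.

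To describe which ligands were raised and whether their receptors are expressed, the levels of all 10 genes were compared between shCtr and shZNF148. PTN, KITLG and EDNRB were higher in every shZNF148 replicate than in any shCtr replicate, EDN1 and ECE1 were lower in every one, and the other 5 overlapped. Of the 5 receptors, EDNRB and SDC3 were at 1 FPKM or more in all 6 samples, while PTPRZ1, EDNRA and KIT were below 1 FPKM in every sample. KIT was listed at 0 throughout, which in this table may be a failed estimate.

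The limma fit on log2(FPKM + 1) took all rows that averaged 1 FPKM or more. A gene counts as called where its adjusted p (Benjamini-Hochberg) was under 0.05 and its change exceeded 1.5-fold. Of the 10 genes, 7 passed this filter and PTPRZ1, EDNRA and KIT did not. KITLG passed it only through its level in shZNF148, since its shCtr mean was below 1 FPKM. Among the 7, 3 were called higher, where 1.83% of all 11777 rows tested were called higher and 5.49% were called in either direction. By limma 0 of the 7 were called lower (3.66% of all rows), although 2 were lower without overlap of the groups (21.0% of all rows tested). Groups did not overlap for 5 of the 7, and for 41.0% of all rows tested. Nothing is read from these counts, because the genes were chosen with this comparison known.

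**Figure D2:**
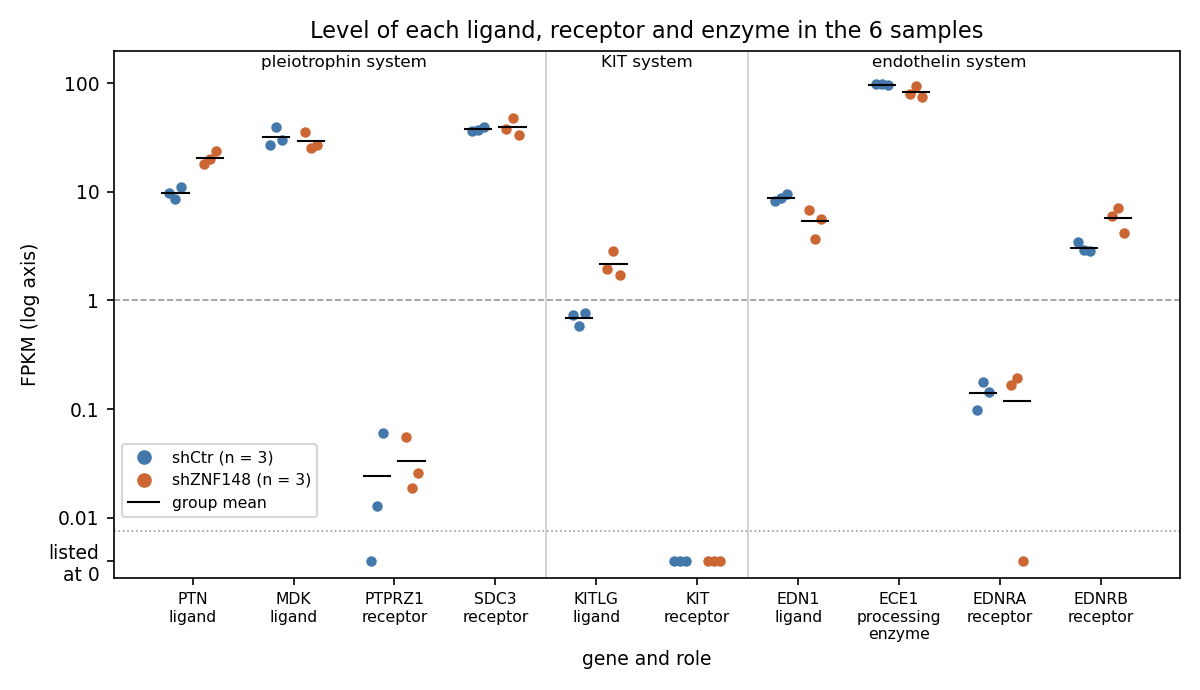
Level of the 10 genes in each of the 6 samples, as FPKM on a log axis, with values listed at 0 drawn on a separate line at the bottom and a dashed line at 1 FPKM. Points are samples (shCtr blue, shZNF148 orange) and black bars are group means. PTN, KITLG and EDNRB are higher in all 3 shZNF148 samples, and KIT is listed at 0 in all 6.

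PTN was at 9.86, 8.54 and 11 FPKM in shCtr replicates 1, 2 and 3. The shZNF148 replicates gave 18.0, 20.2 and 23.9 FPKM in the same order. The lowest shZNF148 replicate was thus well above the highest shCtr replicate. On average PTN was at 9.80 ± 1.22 and 20.7 ± 2.99 FPKM (SD, n = 3 each), a ratio of 2.11. PTN lies on chromosome 7 of GRCh38 from 137227341 to 137343774 (minus strand). Its level moved from the 72.2 to the 82.7 percentile of all rows of the table. On the log2(FPKM + 1) scale the difference was 1.01 (standard error 0.13), and it lay between 0.90 and 1.10 when each replicate was left out in turn.

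MDK, the other ligand of the family, was at 27.1, 39.7 and 30.2 FPKM in shCtr and at 35.3, 25.5 and 26.8 FPKM in shZNF148. The groups overlapped, with the highest value in shCtr replicate 2 and the lowest in shZNF148 replicate 2. MDK averaged 32.3 ± 6.59 and 29.2 ± 5.32 FPKM (± SD of 3 replicates). The log2 difference was -0.14 (standard error 0.17), and without shCtr replicate 2 it was 0.01. MDK lies on chromosome 11 from 46380756 to 46383837 (plus strand). In each shCtr replicate the FPKM of MDK was above that of PTN, as it was in each shZNF148 replicate.

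SDC3, a heparan sulfate proteoglycan receptor, was at 36.5, 37.6 and 39.9 FPKM in shCtr and at 38.1, 48.5 and 33.4 FPKM in shZNF148. The shZNF148 values lay on both sides of the shCtr values. SDC3 averaged 38.0 ± 1.76 and 40.0 ± 7.68 FPKM (SD, n = 3 each), with a log2 difference of 0.06 (standard error 0.13) that was -0.09 without shZNF148 replicate 2. PTPRZ1, the phosphatase receptor, was listed at 0 in shCtr replicate 1 and was at 0.0129 and 0.0596 FPKM in shCtr replicates 2 and 3. It was at 0.0555, 0.0187 and 0.0259 FPKM in shZNF148 replicates 1, 2 and 3. All of these values of PTPRZ1 are too low for a comparison, so of the pleiotrophin receptors in this group only SDC3 was measured at a substantial level. SDC3 lies on chromosome 1 from 30869466 to 30908758 (minus strand) and PTPRZ1 on chromosome 7 from 121873089 to 122062036 (plus strand).

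KITLG was at 0.739, 0.579 and 0.765 FPKM in shCtr replicates 1, 2 and 3. The shZNF148 replicates gave 1.93, 2.85 and 1.71 FPKM in the same order. All 3 shZNF148 values lay above 1 FPKM and all 3 shCtr values below it. Group means were 0.694 ± 0.101 and 2.16 ± 0.607 FPKM (SD, n = 3 each), a ratio of 3.12. The difference was 0.89 (standard error 0.17) on the log2(FPKM + 1) scale, which understates the change of a gene this low. As a ratio of group means with no pseudocount it was 1.64 on the log2 scale, an alternative chosen after seeing the data. Without shZNF148 replicate 2, which was the highest, the log2(FPKM + 1) difference was 0.74. KITLG lies on chromosome 12 from 88492793 to 88580851 (minus strand).

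KIT, the receptor of KIT ligand, lies on chromosome 4 from 54657267 to 54740783 (plus strand) and was listed at 0 in all 6 samples. Some zeros in the table may be failed estimates, because 114 rows switch between 0 and more than 20 FPKM from sample to sample, but no sample gave KIT a value. The level of KIT can therefore not be compared between the groups.

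EDN1 was at 8.23, 8.86 and 9.51 FPKM in shCtr replicates 1, 2 and 3. The shZNF148 replicates gave 6.87, 3.71 and 5.59 FPKM in the same order. All 3 shZNF148 values were below the shCtr values, with replicate 2 the lowest. Group means (± SD, n = 3) were 8.87 ± 0.642 and 5.39 ± 1.59 FPKM, a ratio of 0.608. The log2 difference was -0.66 (standard error 0.19), which was not called. It was -0.45 without shZNF148 replicate 2 and -0.82 without shZNF148 replicate 1. EDN1 lies on chromosome 6 from 12290361 to 12297194 (plus strand).

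ECE1, the enzyme that releases active endothelin, had the highest level of the 10 genes. It was at 98.0, 97.8 and 96.5 FPKM in shCtr and at 80.2, 95.2 and 75.3 FPKM in shZNF148. The groups of ECE1 did not overlap, but shZNF148 replicate 2 came close to the control values. ECE1 averaged 97.4 ± 0.774 and 83.6 ± 10.4 FPKM (SD, n = 3 each), a log2 difference of -0.23 (standard error 0.09) that was not called. ECE1 lies on chromosome 1 from 21217247 to 21345572 (minus strand).

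EDNRB was at 3.47, 2.89 and 2.84 FPKM in shCtr replicates 1, 2 and 3. The shZNF148 replicates gave 5.97, 7.16 and 4.18 FPKM in the same order. The groups did not overlap, and the shZNF148 values were more spread than the shCtr values. Group means (± SD, n = 3) were 3.07 ± 0.35 and 5.77 ± 1.5 FPKM, a ratio of 1.88. The log2 difference was 0.71 (standard error 0.18), and it lay between 0.57 and 0.89 when each replicate was left out. EDNRB lies on chromosome 13 from 77895481 to 77975529 (minus strand). EDNRA, the other receptor (chromosome 4 from 147480917 to 147544954, plus strand), was at 0.0973, 0.179 and 0.142 FPKM in shCtr and at 0.165, 0.194 and 0 FPKM in shZNF148. EDNRB was therefore the endothelin receptor with the higher FPKM in every sample.

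**Figure D3:**
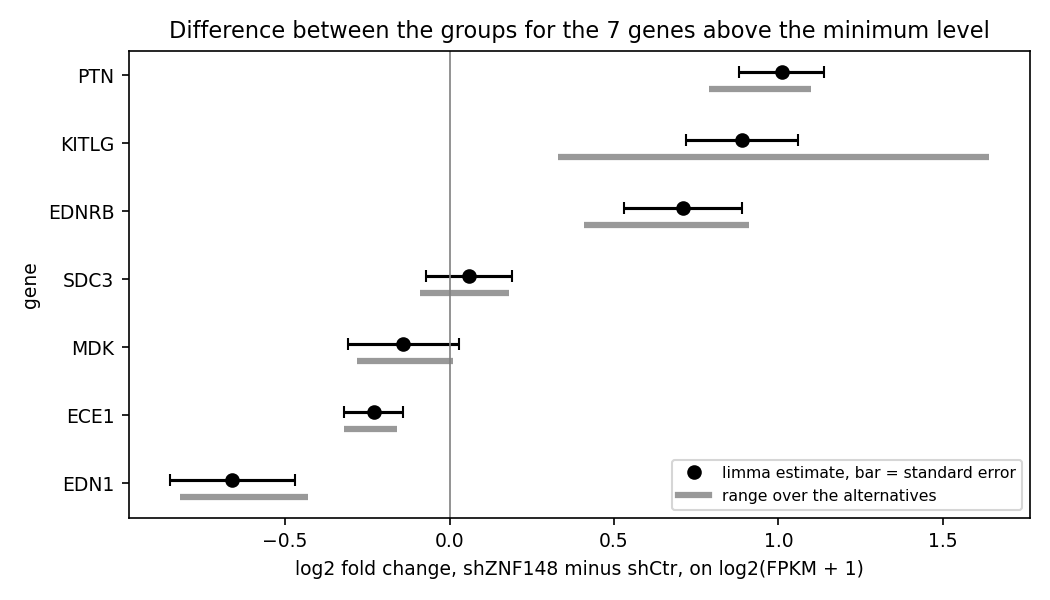
Difference between shZNF148 and shCtr for the 7 genes that averaged 1 FPKM or more, on the log2(FPKM + 1) scale. Points are limma estimates with standard errors (n = 3 per group), and grey bars span all alternatives, which for KITLG run from 0.33 to 1.64.

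Ordered by mean FPKM in shCtr, the genes ran ECE1, SDC3, MDK, PTN, EDN1, EDNRB, KITLG, EDNRA, PTPRZ1 and KIT. Neighbours whose replicates overlapped in this order were SDC3 and MDK, PTN and EDN1, and PTPRZ1 and KIT. In shZNF148 the order was the same except that EDNRB, at 5.77 FPKM, stood before EDN1, at 5.39 FPKM, and these overlapped. In shCtr every value of EDN1 was above every value of EDNRB. PTN and EDN1 no longer overlapped in shZNF148, where the lowest value of PTN was 18.0 FPKM and the highest of EDN1 was 6.87 FPKM.

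The calls of these genes, which rest on the values that chose them, were lost with some samples left out. Without shCtr replicate 1, and also without shCtr replicate 3, none of them was called by limma. In those same fits only 3 rows of the whole table were called higher, against 216 with all samples. With the replicate number as a block PTN alone was called. Over the 15 alternative fits PTN was called higher in 13, KITLG in 9 and EDNRB in 6. EDNRB also lost its call with no filter on low values and with a minimum mean of 0.1 FPKM.

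For each of PTN, KITLG and EDNRB, the 3 rows with the most similar pattern over the 6 samples were found among 11776 other tested rows, by the root mean square difference of centred log2(FPKM + 1) values. For PTN these were TLR3, DLEU1 and MAP3K8, with differences of 0.141, 0.149 and 0.155. For KITLG they were DUSP10 (0.045), FAT4 (0.050) and KRT80 (0.056). DUSP10, a phosphatase for stress-activated MAP kinases, had means of 28.0 ± 1.41 (shCtr) and 55.4 ± 12.5 FPKM (shZNF148, SD, n = 3 each). For EDNRB they were ABHD15 (0.060), C1orf122 (0.071) and LOC728819 (0.081). The 9 rows were picked for their likeness to genes that were higher in shZNF148, so their own direction is fixed by that choice.

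Other binding partners of pleiotrophin and midkine were taken from a list of 24 genes, since the level of PTPRZ1 was near 0. All 24 were found and 18 were tested. Of these, 3 were called lower (16.7%, against 3.66% of all rows) and 0 were called higher by limma. At an unadjusted limma p under 0.05, 2 were higher and 8 lower, and the share of all rows at that p was not counted. Their median log2 difference was -0.10, where the median of all rows tested was 0.01. This list, like the KIT and endothelin lists below, was written with earlier results of these data known. Nothing is therefore read from its shares beside those of all rows. The 3 called genes were SDC1, CSPG4 and LRP1, all cell surface proteins that bind pleiotrophin or midkine.

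SDC1, another syndecan, was at 38.4, 39.4 and 33.8 FPKM in shCtr and at 20.5, 16.6 and 20 FPKM in shZNF148. It fell from a mean of 37.2 ± 2.99 to 19.0 ± 2.10 FPKM (SD, n = 3 each), a log2 difference of -0.93 (standard error 0.10, limma adjusted p = 0.0099). Without shCtr replicate 1 the adjusted p of SDC1 from limma was 0.0713, and without shCtr replicate 3 it was 0.0547. The other syndecans did not pass. SDC2 was at 11.5 ± 0.573 and 10.7 ± 0.789 FPKM, and SDC4 was at 164 ± 7.77 and 181 ± 30.4 FPKM in shCtr and shZNF148 (SD, n = 3 each). The log2 difference of SDC4 was 0.13, and its sign depended on shZNF148 replicate 2.

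CSPG4, the NG2 chondroitin sulfate proteoglycan, was at 16.8, 14.9 and 14 FPKM in shCtr and at 7.63, 9.82 and 8.29 FPKM in shZNF148. Its log2 difference was -0.76 (standard error 0.11, limma adjusted p = 0.0158). LRP1, an endocytic receptor that binds midkine, was at 13.2, 12.8 and 12 FPKM in shCtr and at 8.79, 7.75 and 7 FPKM in shZNF148. Its log2 difference was -0.63 (standard error 0.10, limma adjusted p = 0.0172). Both were lower in all shZNF148 replicates, and both lost the call without any 1 of the 3 shCtr replicates. CSPG4 also lost it without shZNF148 replicate 1, and LRP1 without shZNF148 replicate 3. The adjusted p of CSPG4 reached 0.0852 and that of LRP1 0.0899 when 1 replicate was left out.

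A further 3 of the tested partners passed the adjusted p but not the 1.5-fold threshold. ITGAV, the integrin alpha V chain, was at 46.4 ± 2.30 and 32.9 ± 3.19 FPKM (log2 difference -0.49, limma adjusted p = 0.0223). With a replicate block the adjusted p of ITGAV from limma was 0.0635. ITGA6 was at 166 ± 1.18 and 125 ± 11.4 FPKM (-0.41, limma adjusted p = 0.0252, and 0.0621 with a replicate block). TNC (tenascin C), which binds PTPRZ1, was at 14.8 ± 0.563 and 22.3 ± 2.05 FPKM (0.56, limma adjusted p = 0.0172), and was called without shZNF148 replicate 2 (0.63). Each of the 3 missed the adjusted p in 4 of the 6 fits that left out 1 replicate, where the highest limma value was 0.0957 for ITGAV, 0.103 for ITGA6 and 0.0851 for TNC. ITGA6 and TNC were named after their values were seen. NCL, the nucleolin gene, was at 271 ± 15.6 and 266 ± 35.1 FPKM and did not pass (limma adjusted p = 0.872). ITGB3 was at 1.53 ± 0.411 and 1.33 ± 0.231 FPKM and did not pass (limma adjusted p = 0.667). Of the kinase receptors, ALK was at no more than 0.0230 FPKM in any sample. LTK was at 1.01 ± 0.219 and 1.58 ± 0.475 FPKM and did not pass (limma adjusted p = 0.218).

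**Figure D4:**
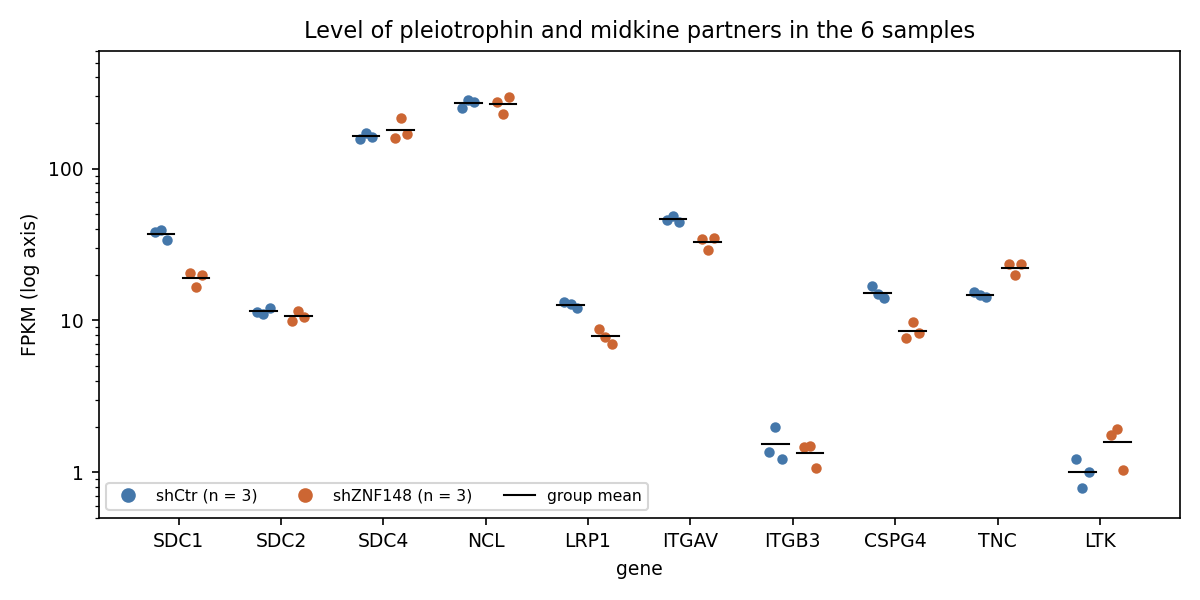
Level of 10 pleiotrophin and midkine partners in the 6 samples, as FPKM on a log axis. Points are samples (shCtr blue, shZNF148 orange) and black bars are group means. SDC1, LRP1, ITGAV and CSPG4 are lower and TNC is higher in all 3 shZNF148 samples, while SDC2, SDC4, NCL, ITGB3 and LTK overlap.

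Genes around KIT, which are mostly signal carriers inside the cell and also proteases such as ADAM17, ADAM10 and MMP9, were described from a list of 32, all found, of which 29 were tested. By limma, 3 were called lower (10.3%, against 3.66% of all rows) and 1 higher (3.45%, against 1.83%), and the median log2 difference was -0.02. Nothing is read from these shares, because the list was written with earlier results known. FYN, a SRC family kinase, was at 14.3, 18.2 and 14.3 FPKM in shCtr and at 8.26, 5.91 and 8.53 FPKM in shZNF148 (log2 difference -0.96, standard error 0.15, limma adjusted p = 0.0187). The adaptor GRB7 fell from 5.54 ± 1.58 to 2.41 ± 0.372 FPKM (-0.91, limma adjusted p = 0.0332). PIK3CA, a catalytic subunit of PI3 kinase, fell from 9.73 ± 0.436 to 6.01 ± 1.24 FPKM (-0.63, limma adjusted p = 0.0362). PIK3R1, a regulatory subunit, went from 1.61 ± 0.214 to 2.70 ± 0.303 FPKM (0.51, limma adjusted p = 0.0415). It passed the adjusted p alone, was not called, and was named after its values were seen. SH2B3 (LNK), an adaptor that restrains KIT signalling, rose from 37.2 ± 0.610 to 62.9 ± 12.6 FPKM (0.72, limma adjusted p = 0.0234).

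These 4 calls are less firm than that of SDC1. With the replicate number as a block none of the 4 was called by limma (adjusted p = 0.0599 for FYN, 0.0767 for GRB7, 0.0622 for PIK3CA and 0.0503 for SH2B3). Each of the 4 also lost its call without shCtr replicate 1, without shCtr replicate 3 and without shZNF148 replicate 1. PIK3CA lost it when any 1 of the 6 replicates was left out. The metalloprotease ADAM17, which can release KIT ligand from the membrane, was at 23.5 ± 0.282 and 21.0 ± 1.38 FPKM and did not pass (limma adjusted p = 0.159).

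Of 35 other endothelin pathway genes, all were found and 25 were tested. Of these, 1 was called lower (4.0%, against 3.66% of all rows) and 0 were called higher by limma. At an unadjusted limma p under 0.05, 4 were higher and 3 lower, and the share of all rows at that p was not counted. The median log2 difference was 0.00. PRKCE, the epsilon isoform of protein kinase C, was at 5.46, 5.56 and 6.34 FPKM in shCtr and at 3.35, 1.68 and 3.13 FPKM in shZNF148 (log2 difference -0.90, standard error 0.19, limma adjusted p = 0.0331). It lost the call with the replicate number as a block (limma adjusted p = 0.0596), and in 5 of the 6 fits that left out 1 replicate. PRKCD, at 29.7 ± 1.65 and 24.0 ± 0.892 FPKM, passed the adjusted p alone (-0.30, limma adjusted p = 0.0388). It was named after its values were seen.

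Of the other ligands, EDN3 was listed at 0 in all 6 samples. EDN2 was at 0.238, 0.109 and 0.907 FPKM in shCtr and at 0.845, 1.07 and 1.18 FPKM in shZNF148, which overlapped, and it was under the minimum level for the test. FURIN, which cuts the endothelin precursor before ECE1, was at 44.4 ± 1.10 and 51.9 ± 1.88 FPKM (limma adjusted p = 0.0520) and ECE2 at 10.6 ± 1.10 and 13.6 ± 1.56 FPKM (limma adjusted p = 0.0905), and neither passed. MME (neprilysin), which degrades endothelin, was at no more than 0.0190 FPKM in any sample. The G protein subunits GNAQ, at 9.15 ± 0.974 and 8.51 ± 1.18 FPKM, and GNA11, at 50.2 ± 1.79 and 60.9 ± 6.85 FPKM, did not pass either (limma adjusted p = 0.605 and 0.0932).

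**Figure D5:**
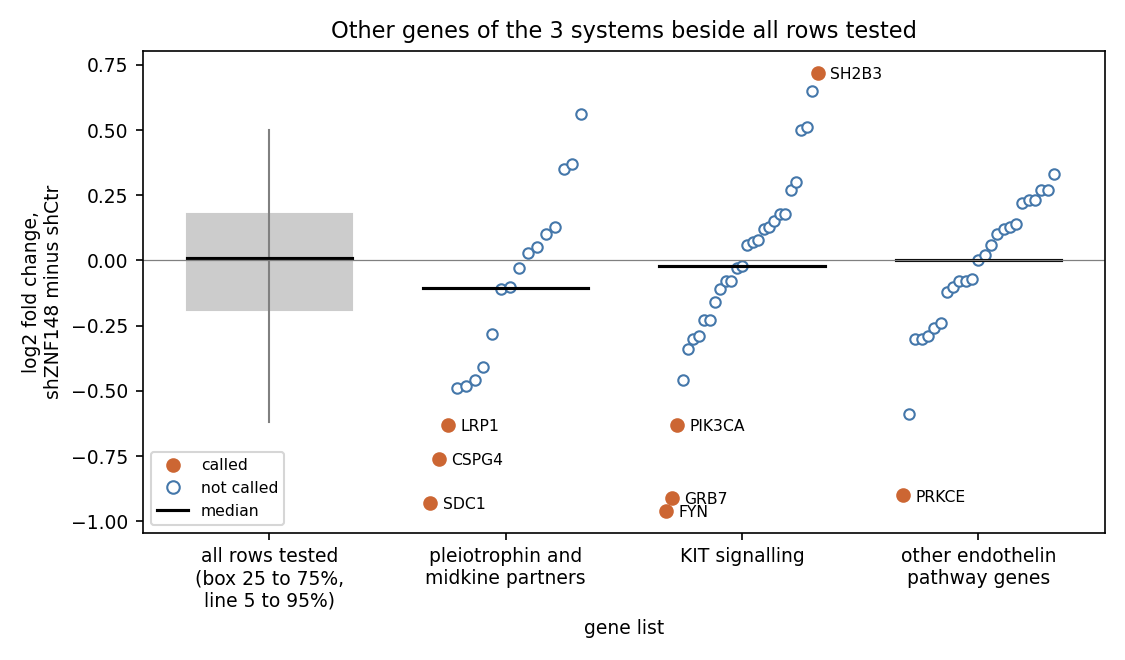
Log2 difference between shZNF148 and shCtr of the tested genes of 3 lists, beside the spread of all 11777 rows tested (box from the 25 to the 75 percentile, line from the 5 to the 95 percentile). Filled points are called genes, open points are not called, and black lines are medians, at -0.10, -0.02 and 0.00 for the lists and 0.01 for all rows.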

How the data were processed

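RNA-seq of 3 shCtr and 3 shZNF148 samples was grouped by the sample titles. A single table was deposited, which holds FPKM values in 1 column per sample, and 0 columns were unused. The submitters' processing notes list bcl2fastq 2.17.1.14, TopHat2 2.0.14, Cufflinks 2.2.1 and Cuffnorm 2.2.1, and the builds hg18 and hg19, with no role given. The paper's methods instead name Salmon on GRCh38 and DESeq2. Which of these made the FPKM values is not stated, so a test on read numbers was not run and the precision of low values is unknown. Coordinates are those of GENCODE release 44 on GRCh38.

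Rows averaging 1 FPKM or more were fitted on log2(FPKM + 1) with limma 3.58.1 (R 4.3.3), condition as the only term, variances moderated with a trend, and p-values adjusted over 11777 rows (Benjamini-Hochberg). Named genes are the 10 members, ZNF148, called genes of 3 pathway lists with 17 further list genes, and the 3 rows most like PTN, KITLG and EDNRB. Some other list genes were named after their values were seen. Members, lists and the promoter word were chosen with earlier results of these data known. List genes were matched by symbol, 3 of them by an older one. In simulated data of 11777 rows with 200 changed, 90.5% of changed rows were called, with 6 false calls. All changed rows were given the same size of log2 difference, larger than the log2(FPKM + 1) difference of any of the 10 members. How this share varies with the size of the difference was not tested, so it is not carried over to the genes named here. Alternatives covered the filter, pseudocount, scaling, block, variance model, summed rows and each replicate left out.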

Additional observations from a re-analysis of the deposited data

How the results depend on the processing

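The number of reads is unknown, so levels under 1 FPKM, such as those of KITLG in shCtr, EDNRA and PTPRZ1, carry an error that could not be estimated. PTN, KITLG, EDNRB, EDN1 and ECE1 kept their direction under all alternatives tried. With a pseudocount of 5 FPKM the log2 differences of PTN, KITLG and EDNRB were 0.79, 0.33 and 0.41, 1 member was called higher, and 76 rows were called higher and 204 lower over the whole table. In that setting 1 pleiotrophin and midkine partner, 1 KIT signalling gene and 0 endothelin pathway genes were called lower. With 0.1 FPKM the difference of KITLG was 1.49, and 2 KIT signalling genes were called higher. The ratio of group means with no pseudocount gave 1.64 for KITLG. With no filter on low values 1 KIT signalling gene and 0 endothelin pathway genes were called lower.

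The titles give the groups the same replicate numbers. The deviations of same-numbered samples correlated across rows at 0.001, -0.088 and 0.03, and not every sample correlated best with its own number, so the numbers were not taken to pair them. In a fit with a replicate block, 99 rows were called higher and 216 lower, 1 member was called higher, and of the KIT signalling genes 0 were called higher and 0 lower. Of the endothelin pathway genes 0 were called lower with the block.

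With each replicate left out in turn, 3 to 209 rows were called higher and 19 to 393 lower, and 0 to 3 members were called higher. The fewest higher calls, 3, came without shCtr replicate 1 and without shCtr replicate 3. The called partners of pleiotrophin and midkine were 0 to 1 higher and 0 to 3 lower. The called KIT signalling genes were 0 to 1 higher and 0 to 2 lower, and the called endothelin pathway genes were 0 to 1 lower. Some log2 differences near 0 changed sign. NCL was 0.07 with quantile scaling and -0.11 to 0.08 with a replicate left out. Over the left-out replicates ITGB3 ran from -0.19 to 0.02, SDC4 from 0.00 to 0.22 and GNAQ from -0.18 to 0.00. The causes were not tested.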
